A study of Homo sapiens with 8 samples.

Results

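The 150 best-expressed long noncoding RNAs (lncRNAs) with a gene name or number were described across HepG2 cells given a miR-552-3p mimic, an siRNA to importin8, both or neither. They were taken from 4347 rows typed as lncRNA in a table of 26716 genes and were chosen by their mean expected count over 8 libraries, highest first. The last row inside had a mean of 489.4 expected counts and the first row outside 487.7. The rule would also drop unnamed predictions and a gene by name, which removed no row here. The rule used no contrast, but a lncRNA could enter through a group in which it was high. Without the mimic-alone libraries 7 of the 150 had a mean under 489.4 counts, LUCAT1 (243.8) and TM4SF19-TCTEX1D2 (185.5) among them, and 6 of the 7 were called higher with the mimic. Without the NC libraries 12 were under that limit, MKLN1-AS among them. Of these 12, 10 were called lower with the mimic and 9 with the importin8 siRNA. Counts of calls over the 150 therefore hold some lncRNAs that had to differ. HepG2 is a human hepatocellular carcinoma line, and the study crossed a mimic of miR-552-3p or a control mimic, each at 1 nM, with an siRNA to importin8 (gene IPO8) or a control siRNA, each at 30 nM. RNA was taken after 72 h and its poly(A) fraction was sequenced as single reads of 50 bases. The series title places the question in FXR and LXR activity and liver metabolism. The 4 groups of 2 libraries are NC (control mimic and control siRNA), miR-552-3p (mimic and control siRNA), siIPO8-NC (control mimic and importin8 siRNA) and siIPO8-miR-552-3p (mimic and importin8 siRNA). All 4 groups are 1 transfected cell line, and nothing in the labels says that replicates came from separate cultures. The p-values then reflect only how far these libraries spread, which may be technical.

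Libraries held 21608563 to 22102373 expected counts, of which the 150 lncRNAs took 1.10 to 1.24%. Levels are in CPM, counts relative to library size after TMM scaling. IPO8 read 34.7 and 33.3 CPM in NC, 25.4 and 24.6 with the mimic, 11.4 and 11.5 with the siRNA, and 7.65 and 8.30 with both agents. Both siRNA groups lay under both others, and the mimic groups lay under their control mimic groups. All 10 hepatocyte and hepatoma markers were present, with a summed level of 47550 to 72700 CPM. It was lowest with the mimic alone (47550 and 48500) and highest with both agents (68820 and 72700). Fibroblast markers summed to under 20 CPM, and the 4 blood markers found to 12.3 to 14.8 CPM with the mimic alone and 0.57 to 2.47 elsewhere. The 4 endothelial markers summed to 75.4 to 81.2 CPM in NC and 19.5 to 30.7 in the other groups. The 4 cholangiocyte markers summed to 916 to 923 CPM with the mimic alone and 327 to 555 elsewhere. The part of these shifts in the results was not tested. In bulk RNA, fewer cells of a type and less RNA per cell cannot be told apart.

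Long noncoding RNAs are transcripts that are not translated into a known protein. Some stay in the nucleus, where MALAT1 sits in speckles and NEAT1 builds paraspeckles, and others are spliced hosts from whose introns small nucleolar RNAs (snoRNAs) or microRNAs are cut. Many lie antisense to, or share a promoter with, a coding gene. Importin8 carries cargo into the nucleus and has been linked to Argonaute proteins, the partners of microRNAs. A microRNA pairs with target RNA mainly through its seed, the bases near its 5′ end.

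The mature sequence is shown because the mimic carries it and because its seed was searched for in the lncRNAs. It comes from RefSeq (GRCh38.p14, chr1:34669614-34669634, minus strand), with the seed, bases 2 to 8, in capitals.
hsa-miR-552-3p: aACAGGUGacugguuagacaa
The DNA letters that pair with the seed are CACCTGT. In GENCODE v29, 86 of the 150 lncRNAs were matched, and the longest transcript of 25 of them (29.1%) held at least 1 such match. Over all 15006 lncRNA genes of GENCODE v29 it was 13.4%, with a median longest transcript of 0.69 kb against 3.63 kb for the 25 and 1.97 kb for the other lncRNAs matched. KCNQ1OT1 held 20 matches in 91667 bases, NEAT1 3, and OIP5-AS1, MKLN1-AS, NORAD and RTEL1-TNFRSF6B 2 each. A match of OIP5-AS1 is shown, since this RNA was far lower with the mimic. Capitals mark the 7 paired bases, with 9 bases on either side.
OIP5-AS1 from base 8772: gaagctctgCACCTGTgtatatata
A match is a description of letters, not a measured site.

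Counts were uneven over the 150. The first 3 by count held 24.0% of the counts of all 150, and 18 together reached 0.5 of them. By name, 72 were LOC-numbered or had no symbol, 26 had a name of their own, 25 were antisense, intronic or divergent by symbol, 16 were readthroughs of neighbouring genes and 11 were LINC-numbered. Of 139 found in the RefSeq gene table, 76 overlapped a coding gene. No source used here says whether the counting used strand, so reads from such an lncRNA and its partner cannot be told apart. Readthrough names in the list share exons with coding genes, and their levels are uncertain for the same reason.

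Per length, in FPKM, the highest level belonged to PXN-AS1, antisense to the paxillin gene, with a mean of 862.9. It was followed by LOC105378066 (687.4), LOC101927863 (553.4), MIR4300HG (379.3), LOC102723757 (278.4), LOC105371084 (162.6), LRRC75A-AS1 (156.5), CCDC13-AS1 (155.0), RNASEK-C17orf49 (138.3) and LOC107984261 (113.1). PXN-AS1 (chr12:120201291-120213138, plus strand) was not called in any comparison, at 1015 and 815 CPM in NC, 981 and 904 with the mimic, 1106 and 1060 with the siRNA and 1020 and 1032 with both agents. MALAT1, the best known of the abundant lncRNAs, had a mean of 106.4 FPKM, NORAD 25.2, TUG1 14.5, NEAT1 4.82 and KCNQ1OT1 0.969. LOC102723757, which RefSeq now names SLC38A2-AS1, had the most counts of all. It read 571 and 599 CPM in NC, 896 and 1167 with the mimic, 1188 and 1138 with the siRNA, and 1878 and 1667 with both, and rose in all 4 pairwise comparisons.

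The first comparison asked what the mimic did with the control siRNA. By edgeR's quasi-likelihood test with Benjamini-Hochberg adjustment over 17715 genes, 102 of the 150 lncRNAs were called, 58 higher and 44 lower. That is 68.0%, against 58.4% of all genes tested and 75.9% of the 6949 genes with at least the mean count of the lowest lncRNA chosen. So the share called did not exceed that of these 6949 genes, of which 43.9% were higher and 32.0% lower (28.9% and 29.5% of all genes tested). Below, the 6949 are termed genes with as many counts, though the limit is only a minimum. They include the 150 lncRNAs and were not matched to them in level. The median log2 change was 0.04, against -0.01 over all genes tested, and 42 lncRNAs were called with at least a 2-fold change, against 25.0% of all genes. The mimic moved single lncRNAs up to 45.8-fold up (LUCAT1) and 16.6-fold down (CLMAT3).

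**Figure D1:**
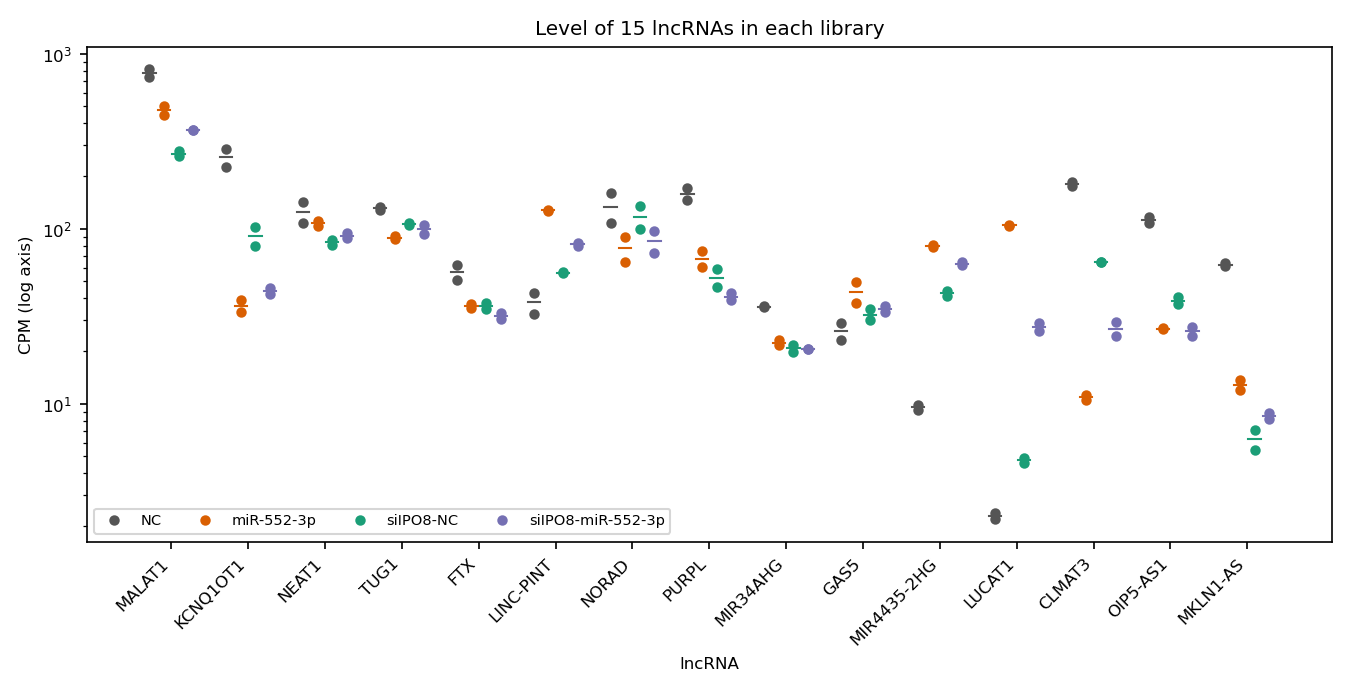
Level in CPM (log axis) of 15 lncRNAs in the 8 libraries, with a point per library, a bar at the group mean and a colour per group. LUCAT1 runs from 2.19 CPM in NC to 105 with the mimic alone, while MALAT1, KCNQ1OT1, PURPL, CLMAT3, OIP5-AS1 and MKLN1-AS are highest in both NC libraries.

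Of the 7 nuclear and chromatin-associated lncRNAs among the 150, 2 rose and 4 fell with the mimic. KCNQ1OT1 (chr11:2608328-2699994, minus strand), the imprinted antisense RNA that silences neighbouring genes in cis, read 226 and 287 CPM in NC against 33.3 and 39.0 in miR-552-3p. Its groups lay far apart, at 14.1% of the NC mean, a log2 change of -2.83 ± 0.17 (SE; adjusted p = 5.9e-06 by edgeR's quasi-likelihood test). MALAT1 (chr11:65497688-65506516, plus strand) read 813 and 739 CPM in NC and 506 and 445 with the mimic. Both mimic libraries lay under both NC libraries, with a log2 change of -0.71 ± 0.08. TUG1, a conserved RNA linked to chromatin repression, went from 128 and 133 to 86.9 and 90.8 CPM (log2 -0.56). FTX, a transcript of the X-inactivation centre, went from 50.9 and 61.9 to 35.1 and 37.2 CPM (log2 -0.64). LINC-PINT (chr7:130938963-131110176, minus strand), a p53-induced RNA that works with Polycomb complexes, moved the other way. It read 43.2 and 32.6 CPM in NC and 126 and 128 with the mimic, a log2 rise of 1.75 ± 0.11. PVT1, the neighbour of the MYC oncogene, rose from 31.9 and 29.8 to 50.0 and 47.4 CPM (log2 0.66). NEAT1 was not called: its NC libraries at 108 and 142 CPM overlapped the mimic libraries at 111 and 104.

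Of the 9 lncRNAs on the list for stress, p53 and hypoxia, 5 rose and 2 fell, with a median log2 change of 0.66. LUCAT1 (chr5:91054834-91314547, minus strand), induced by oxidative and inflammatory stress, read 2.39 and 2.19 CPM in NC and 105.5 and 104 with the mimic (log2 5.51 ± 0.10, adjusted p = 4e-10 by edgeR). It was the largest rise among the 150. MIR4435-2HG (chr2:111036776-111523376, minus strand), a microRNA host linked to growth and to myeloid survival, read 9.81 and 9.25 CPM in NC and 78.2 and 81.0 with the mimic (log2 3.06). GAS5, the growth-arrest snoRNA host, read 28.8 and 23.0 CPM in NC and 49.5 and 37.6 with the mimic (log2 0.75). LINC-PINT and PVT1, on this list too, complete the 5. PURPL, which p53 induces and which restrains p53, went the opposite way, from 146 and 171 CPM to 60.4 and 74.5 (log2 -1.24). MIR34AHG, the host of the p53-induced miR-34a, went from 35.8 and 36.0 to 21.8 and 23.0 CPM (log2 -0.68). So the p53-linked RNAs on the list did not share a direction. NORAD, which holds Pumilio proteins in the cytoplasm, stood at 108 and 160 CPM in NC and 64.7 and 89.9 with the mimic. Its libraries did not overlap, yet its wide spread left it uncalled (log2 -0.79 ± 0.31, adjusted p = 0.082 by edgeR's quasi-likelihood test).

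The snoRNA hosts went both ways, with 2 of 5 higher and 1 lower. SNHG17 read 13.8 and 11.8 CPM in NC and 33.6 and 34.4 with the mimic (log2 1.41 ± 0.09), and GAS5 is given above. SNHG14, the host of the snoRNA clusters of the Prader-Willi region, went from 294 and 316 to 147 and 165 CPM (log2 -0.97 ± 0.08). DANCR and ZFAS1 were not called, at log2 0.01 and -0.16. All 4 lncRNAs on the microRNA host list were called: MIR4435-2HG rose, and MIR34AHG, FTX and DLEU2, the host of miR-15a and miR-16-1, fell. DLEU2 went from 27.1 and 25.7 to a mean of 19.6 CPM (log2 -0.43). MIR4300HG, a microRNA host by its symbol that is not on the list, was called higher at 0.23, a call that ended when NC replicate 2, or replicate 2 of the mimic group, was left out (0.15 to 0.22, adjusted p 0.064 to 0.084). DLEU1, the divergent neighbour of DLEU2, was not called (log2 -0.02). Over the whole tested lists, members or not, the mimic alone raised 3 and lowered 7 of 16 nuclear lncRNAs, 6 and 2 of 14 stress lncRNAs, 4 and 5 of 18 snoRNA hosts, 2 and 5 of 15 microRNA hosts, and 5 and 9 of 26 growth and cancer lncRNAs.

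Among usual symbols, the largest falls with the mimic were antisense or intergenic RNAs. CLMAT3 (chr5:151676945-151724782, plus strand) read 185 and 177 CPM in NC, 11.3 and 10.6 with the mimic, 64.5 and 64.8 with the siRNA, and 29.5 and 24.3 with both agents. No 2 groups overlapped, and the mimic alone left 6.03% of the NC mean (log2 -4.05 ± 0.10). CLMAT3 overlaps SPARC, a secreted matrix glycoprotein gene, on the opposite strand over 17.4% of its exons. SPARC read 199 and 222 CPM in NC, 11.4 and 10.7 with the mimic, 68.9 and 69.9 with the siRNA and 31.6 and 35.1 with both, the same order of groups at nearly the same levels. Reads of the pair cannot be told apart here. OIP5-AS1 (chr15:41283990-41309737, plus strand), an RNA that lowers miR-7 and binds the HuR protein, read 108 and 117 CPM in NC and 26.7 and 27.0 with the mimic (log2 -2.06 ± 0.08). MKLN1-AS (chr7:131309469-131328222, minus strand) read 61.0 and 63.3 CPM in NC and a mean of 12.8 with the mimic (log2 -2.27 ± 0.11). It passed the count limit only through the NC libraries. DHRS4-AS1, antisense to a retinal reductase gene, went from 101 and 89.7 to 24.1 and 26.2 CPM (log2 -1.92). LINC00987 went from 138 and 125 to 43.4 and 49.7 CPM (log2 -1.5), and CCDC183-AS1 changed by -1.03.

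Other large rises came from antisense, intergenic and readthrough names. TM4SF19-TCTEX1D2 (chr3:196316082-196338373, minus strand), a readthrough of a tetraspanin-like gene and a dynein light chain gene, read 3.47 and 4.38 CPM in NC and 91.6 in both mimic libraries (log2 4.54 ± 0.12). GENCODE types it as coding, and 98.3% of its exons lie in coding exons. TM4SF19 itself had 0 counts in all 4 libraries without the mimic, and 23.3 and 19.1 CPM with the mimic alone. CCDC13-AS1 went from 88.6 and 74.4 to 379 and 347 CPM (log2 2.15), RASGRF2-AS1 from 19.6 and 17.3 to 84.3 and 76.6 (2.13), and LINC01964 from 63.5 and 46.5 to 155 and 149 (1.47). CZ1P-ASNS, a readthrough into the asparagine synthetase gene, rose from 42.9 and 39.7 to 108 and 107 CPM. The LOC-numbered and unnamed lncRNAs spanned about the same range, from log2 -3.64 to 4.23, with 29 higher and 19 lower of 72.

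**Figure D2:**
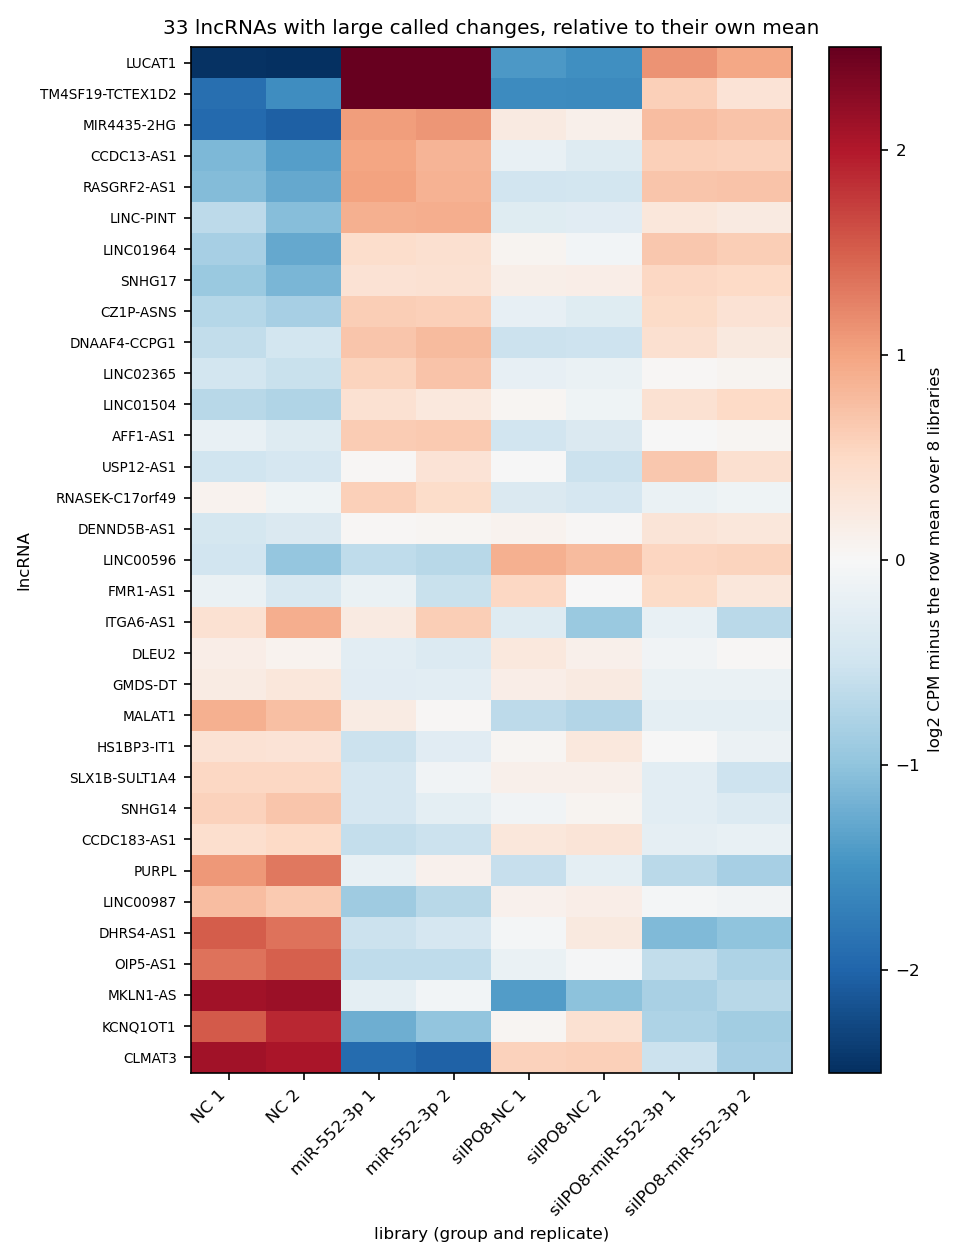
Colour gives log2 CPM minus the row's mean over 8 libraries, for the 33 lncRNAs with usual symbols and the largest called changes, ordered by the mimic's change with control siRNA. LUCAT1 and TM4SF19-TCTEX1D2 are lowest and CLMAT3, KCNQ1OT1 and MKLN1-AS highest in NC, and siIPO8-NC lies between NC and miR-552-3p for CLMAT3, KCNQ1OT1 and MIR4435-2HG.

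With the importin8 siRNA present, the mimic moved fewer lncRNAs and by less. Comparing siIPO8-miR-552-3p with siIPO8-NC, 58 of 150 were called (38.7%, against 31.7% of all genes tested and 46.5% of those with as many counts), 47 higher and 11 lower. Among genes with as many counts, 25.7% were higher and 20.9% lower. The split was 39 higher and 19 lower with no scaling beyond library size, and 53 and 18 when only those 4 libraries were fitted. The median log2 change was 0.12, and 10 were called with at least a 2-fold change, against 6.38% of all genes tested. LUCAT1 read 4.89 and 4.59 CPM in siIPO8-NC and 28.9 and 26.0 with both agents, 5.79-fold up (log2 2.53 ± 0.09). TM4SF19-TCTEX1D2 (log2 2.05), RASGRF2-AS1 (1.18), DNAAF4-CCPG1 (0.85), CCDC13-AS1 (0.84), CZ1P-ASNS (0.67), LINC01964 (0.64), MIR4435-2HG (0.56), PVT1 (0.56) and LINC-PINT (0.54) rose too. The largest falls among usual symbols were CLMAT3 (-1.26), DHRS4-AS1 (-1.17), KCNQ1OT1 (-1.04) and OIP5-AS1 (-0.58), followed by CCDC183-AS1 and the readthrough SLX1B-SULT1A4, both at -0.51. SNHG14 changed by -0.30, a call lost without siIPO8-NC replicate 2 or either library with both agents (values -0.32 to -0.22, adjusted p 0.079 to 0.17). SLX1B-SULT1A4 was lost without siIPO8-miR-552-3p replicate 2 (-0.39, adjusted p = 0.074 by edgeR). MALAT1 read 277 and 261 CPM in siIPO8-NC and 369 and 367 with both, a log2 rise of 0.45 where the mimic alone had lowered it.

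Both mimic effects come from separate libraries, so they can be set against each other. Of the 150 lncRNAs, 55 were called in both arms, which is 53.9% of the 102 called with control siRNA and 94.8% of the 58 called with importin8 siRNA. Over all genes tested, 4855 were called in both arms, out of 10341 called with control siRNA and 5607 with importin8 siRNA. In 51 the direction was the same, 40 higher and 11 lower, and in 4 it was opposite (7.27%, against 3.85% of the 4855 genes called in both arms). Across the 150 lncRNAs, which are not independent, the log2 changes of both arms had a Pearson r of 0.85, and across all genes tested 0.51. These r values are not like for like, since the genes tested include those with fewer counts. LUCAT1 and TM4SF19-TCTEX1D2, with the largest rises among usual symbols, also entered the 150 only through the mimic-alone libraries. The change was smaller in size under the importin8 siRNA for 117 of 150. The median absolute log2 change went from 0.57 to 0.26, and over all genes tested from 0.59 to 0.32.

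**Figure D3:**
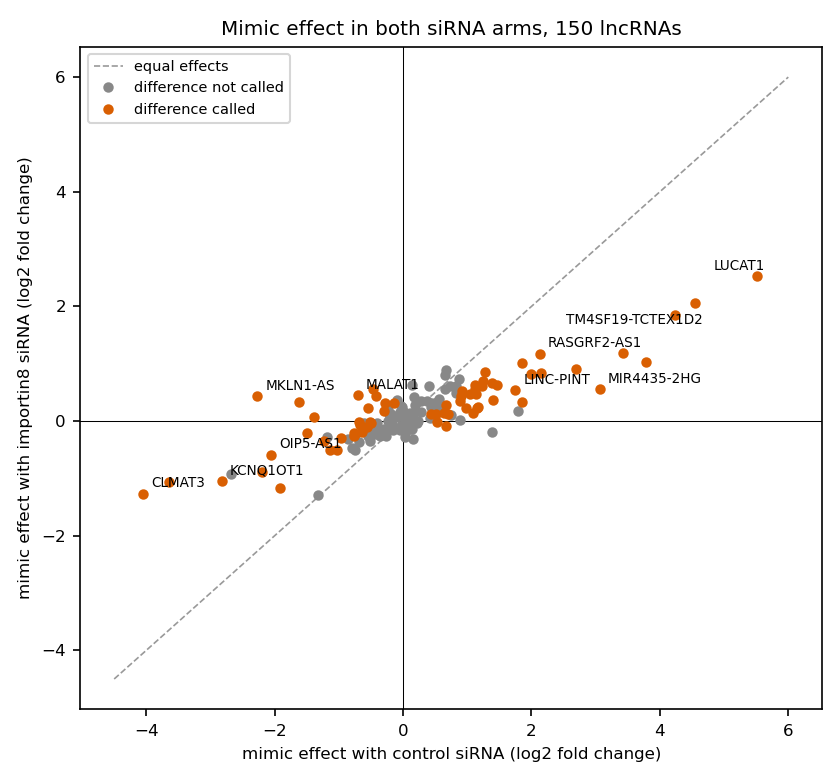
Log2 fold change of each of the 150 lncRNAs with the mimic, with control siRNA (x) against importin8 siRNA (y), where the dashed line marks equal effects and orange points are those whose difference was called. LUCAT1 lies at 5.51 and 2.53, CLMAT3 at -4.05 and -1.26, and 117 of 150 points have the smaller size on the y axis.

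The difference between both mimic effects was itself tested, as the interaction. It was called for 67 lncRNAs (44.7%, against 31.3% of all genes tested and 49.0% of those with as many counts), 30 with a more positive and 37 with a more negative effect under importin8 siRNA, where genes with as many counts had 20.4% and 28.6%. Both the NC and the mimic-alone libraries enter this difference, so these counts hold some lncRNAs tied to the selection by count. LUCAT1 and TM4SF19-TCTEX1D2 passed the count limit only through the mimic-alone libraries, and MKLN1-AS only through the NC libraries. LOC-numbered lncRNAs spanned -2.74 to 2.59. The largest negative values among usual symbols were LUCAT1 (-2.98 ± 0.15), MIR4435-2HG (-2.5), TM4SF19-TCTEX1D2 (-2.49), CCDC13-AS1 (-1.32), LINC-PINT (-1.21) and SNHG17 (-1.05), all of which rose with the mimic in both arms and rose less with the siRNA. The largest positive values among usual symbols were CLMAT3 (2.79), MKLN1-AS (2.71), KCNQ1OT1 (1.78), OIP5-AS1 (1.48), LINC00987 (1.30) and MALAT1 (1.16). CLMAT3, KCNQ1OT1 and OIP5-AS1 fell in both arms and by less with the siRNA. LINC00987 was not called with importin8 siRNA (-0.20). MALAT1 changed direction between arms. MKLN1-AS was 0.44 higher with importin8 siRNA, but that call was lost without siIPO8-NC replicate 1 (0.26) or without siIPO8-miR-552-3p replicate 1 (0.51) or 2 (0.39), with DESeq2 (0.45), with limma-voom (0.45), with no scaling (0.37) and when only those libraries were fitted. For PURPL the difference was 0.88 (adjusted p = 0.017 by edgeR), and it missed the threshold when NC replicate 2, or replicate 1 with both agents, was left out (0.77 to 0.81, adjusted p 0.062 to 0.07). SNHG17 kept its rise of 0.36 in that arm under each replicate left out, and DESeq2 gave it an adjusted p of 0.052.

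The importin8 siRNA by itself was compared with NC next. Both comparisons with NC share the NC libraries, so their values are given side by side only. Comparing siIPO8-NC with NC, 88 of 150 lncRNAs were called (58.7%, against 47.0% of all genes tested and 65.9% of those with as many counts), 43 higher and 45 lower, where genes with as many counts had 42.4% higher and 23.5% lower. Of the 45, 9 were among the 12 lncRNAs that passed the count limit only through the NC libraries. There were 21 called with at least a 2-fold change, against 14.1% of all genes tested, with a median log2 change of 0.03. The nuclear list was mostly lower, with 5 of 7 falling and 1 rising. MALAT1 had its largest change here, from 813 and 739 to 277 and 261 CPM, 34.7% of the NC mean (log2 -1.53, adjusted p = 5.8e-07 by edgeR). KCNQ1OT1 fell to 79.9 and 102 CPM (-1.5), NEAT1 to 80.5 and 86.6 (-0.58), FTX to 34.9 and 37.5 (-0.64) and TUG1 to 105 and 107 (-0.30). For NEAT1 this was the one call in any comparison. LINC-PINT rose to 55.5 and 56.5 CPM (0.56), and PVT1 was not called (0.06).

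MKLN1-AS had the largest fall with the siRNA among the 150, from 61.0 and 63.3 to 5.43 and 7.06 CPM, 10.1% of the NC mean (log2 -3.31 ± 0.12). It was among the 12 lncRNAs that passed the count limit only through the NC libraries, so its fall is tied to that choice. PURPL fell to 46.2 and 58.5 CPM (-1.60), OIP5-AS1 to 36.9 and 40.8 (-1.53), CLMAT3 to 64.5 and 64.8 (-1.49), DHRS4-AS1 to 34.2 and 41.8 (-1.32) and MIR34AHG to 19.8 and 21.8 (-0.79). DANCR, a host of snoRNAs that keeps progenitor cells undifferentiated, went from 74.3 and 57.6 to 45.3 and 47.2 CPM (-0.51), and DLEU1 changed by -0.51. ITGA6-AS1 was called at -1.26, and that call was lost without NC replicate 2 or siIPO8-NC replicate 2 (-1.27 to -0.97 over the alternatives that lost it, adjusted p 0.063 to 0.11). MIR4435-2HG rose most among usual symbols, to 44.1 and 41.5 CPM, 4.49-fold (log2 2.17 ± 0.08). LINC00596 read 49.8 and 35.8 CPM in NC, 44.5 and 43.2 with the mimic, 128 and 120 with the siRNA, and 102 and 103 with both. It rose with the siRNA in both mimic arms and was not called for the mimic in either. SNHG17 (1.19), LUCAT1 (1.05), LINC01964 (1.05), CCDC13-AS1 (0.98), RASGRF2-AS1 (0.71) and LINC01504 (0.69) rose too.

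Among mimic-treated cells the siRNA comparison, siIPO8-miR-552-3p against miR-552-3p, called 54 lncRNAs (36.0%, against 33.5% of all genes tested and 49.7% of those with as many counts), 23 higher and 31 lower, where genes with as many counts had 29.1% higher and 20.5% lower. Of the 31, 4 were among the 7 lncRNAs that passed the count limit only through the mimic-alone libraries. With at least a 2-fold change the comparison called 9, against 7.72% of all genes tested. Without siIPO8-miR-552-3p replicate 1 it called 35, and the 23 higher became 13 without that library or without miR-552-3p replicate 1, and 15 without siIPO8-miR-552-3p replicate 2. TM4SF19-TCTEX1D2 went from 91.6 in both libraries to 19.4 and 16.3 CPM (log2 -2.36), LUCAT1 from 105.5 and 104 to 28.9 and 26.0 (-1.93), and LINC-PINT from 126 and 128 to 83.1 and 80.0 (-0.64). RNASEK-C17orf49 (-0.67), AFF1-AS1 (-0.62) and LINC02365 (-0.60) fell too. CLMAT3 rose from 11.3 and 10.6 to 29.5 and 24.3 CPM (1.30), LINC00596 by 1.22 and LINC00987 by 0.72. MALAT1 was called at -0.37, and without miR-552-3p replicate 1 it was -0.27 (adjusted p = 0.07 by edgeR). PURPL was called at -0.72 and lost without siIPO8-miR-552-3p replicate 2 (-0.64, adjusted p = 0.072), and MKLN1-AS at -0.60 and lost without siIPO8-miR-552-3p replicate 1 (-0.54, adjusted p = 0.051). Across the 150 lncRNAs the siRNA's changes in both mimic arms, from separate libraries, had a Pearson r of 0.15 (0.21 over all genes tested). Of 38 called in both, 24 had the same direction and 14 the opposite (36.8%, against 25.2% of the 3973 genes called in both).

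Set across all 4 groups, NC stood at an end of the range for most of the lncRNAs. It had the highest mean for 54 of 150 and the lowest for 63, while miR-552-3p had the highest for 53 and the lowest for 32. The groups siIPO8-NC and siIPO8-miR-552-3p were highest for 19 and 24 and lowest for 32 and 23. The highest group mean was at least 2-fold the lowest for 59 lncRNAs and at least 4-fold for 17, with a median of 1.75. In all, 21 were called in each of the 4 pairwise comparisons and 25 in none of these nor in the interaction. The tallies of this paragraph were not made over all genes, so they cannot be read as particular to the lncRNAs.

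Antisense, intronic and divergent lncRNAs moved both with and against their partner genes. Of 23 such pairs with both genes tested, 12 had both called with the mimic and control siRNA, 7 in the same direction and 5 in opposite ones, and across pairs r was 0.45. RASGRF2-AS1 and RASGRF2, a Ras exchange factor gene, rose alike (log2 2.13 and 2.06). MKLN1-AS and MKLN1 fell together with the mimic (-2.27 and -0.60) and with the siRNA (-3.31 and -1.02). OIP5-AS1 and OIP5, a centromere protein gene, both fell with the mimic (-2.06 and -0.46), but with the siRNA OIP5-AS1 fell (-1.53) and OIP5 rose (0.30). SVIL-AS1 went from 46.1 and 53.7 to 32.5 and 35.5 CPM with the mimic while SVIL, the supervillin gene, went from a mean of 20.2 to 99.3 and 111 CPM (-0.55 and 2.38). GMDS-DT fell as GMDS, the GDP-mannose dehydratase gene, rose (-0.51 and 1.2), HS1BP3-IT1 fell as HS1BP3 rose (-0.76 and 0.59), and DENND5B-AS1 rose as DENND5B fell (0.44 and -0.85). PSMA3-AS1 was called lower at -0.61 where PSMA3 was 0.55 higher, a call that leaving out NC replicate 2, or replicate 1 of the mimic group, ended (-0.54 to -0.49, adjusted p 0.068 to 0.078). PXN rose with the mimic (1.43) while PXN-AS1 was not called (0.04).

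**Figure D4:**
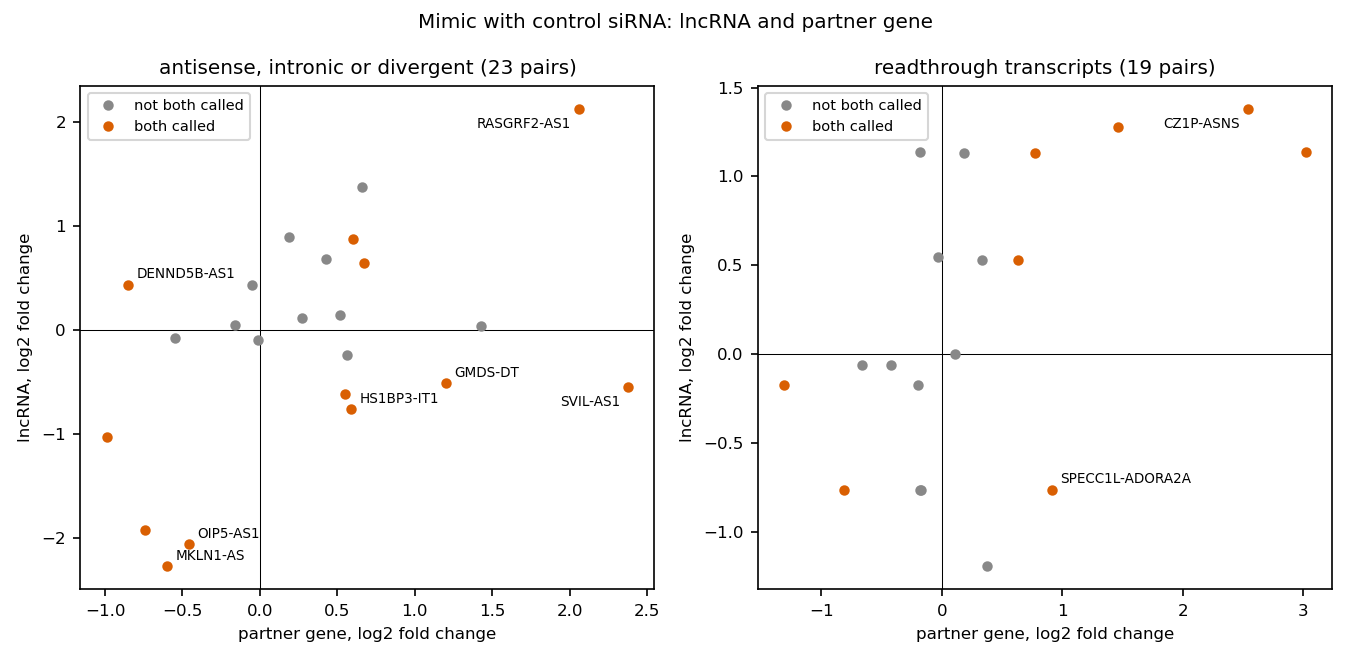
Log2 fold change with the mimic and control siRNA of each lncRNA (y) against the gene its symbol names (x), on the left for 23 antisense, intronic or divergent pairs and on the right for 19 readthrough pairs whose parent gene had at least 30 counts in every group. Orange marks pairs with both called, and SVIL-AS1, GMDS-DT and HS1BP3-IT1 sit below 0 with partners above 0.

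For the 16 readthroughs, 25 pairs with a tested parent gene were formed, and 9 of the 10 with both called had the same direction. Parent and readthrough share exons, so their counts are not independent. Over the 19 pairs whose parent had at least 30 counts in every group, r was 0.55. CZ1P-ASNS rose with ASNS (log2 1.38 and 2.54) and DNAAF4-CCPG1 with CCPG1 (1.28 and 1.46). ASNS makes asparagine, and CCPG1 is an autophagy receptor of the endoplasmic reticulum. SPECC1L-ADORA2A, named after its values were seen, was the exception, lower by -0.76 as ADORA2A, an adenosine receptor gene with few counts, rose by 0.91.

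In both comparisons with NC, the lncRNAs with a long implied length were more often called lower than higher. Counts and FPKM together imply the length the authors' tools used, which ran from 0.26 to 145 kb over the 150 with a median of 4.43 kb. Of 29 lncRNAs of at least 10 kb, a limit chosen with these results known, 4 rose and 15 fell with the mimic and control siRNA, and 6 rose and 17 fell with the importin8 siRNA. Of the 121 shorter ones, 54 rose and 29 fell, and 37 rose and 28 fell. Over the 1499 genes tested with as great an implied length, 15.1% were higher and 21.7% lower with the mimic, and 6.27% and 21.1% with the siRNA. In the other comparisons, of the 29, 6 rose and 3 fell with the mimic under importin8 siRNA (median 0.06), and 6 rose and 9 fell with the siRNA in mimic-treated cells (median -0.13). Over the 1499 genes, 7.47% were higher and 6.74% lower in the former comparison, and 5.0% and 11.9% in the latter. The 1499 genes were not matched to the lncRNAs for counts, on which the share called also depends. In the comparisons with NC the medians were -0.30 and -0.51 for the long and 0.16 and 0.10 for the short lncRNAs. Among the long ones KCNQ1OT1, LINC00987, SNHG14, PURPL, FTX, MIR34AHG, SVIL-AS1 and MKLN1-AS fell in both comparisons, while LINC-PINT rose in both. Long here means the implied length only. In GENCODE v29 the longest transcripts of KCNQ1OT1, SNHG14 and FTX had 91667, 13074 and 12267 bases. Those of PURPL, SVIL-AS1, MKLN1-AS, LINC00987, LINC-PINT and MIR34AHG had only 1610, 2025, 2279, 2472, 3505 and 4457 bases. LINC00987 had the longest implied length, which exceeds its gene in GENCODE. Both comparisons share the NC libraries. NC replicate 2 was above NC replicate 1 for 18 of the 29 long lncRNAs and 67 of all 150, and for 45.7% of all genes tested.

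**Figure D5:**
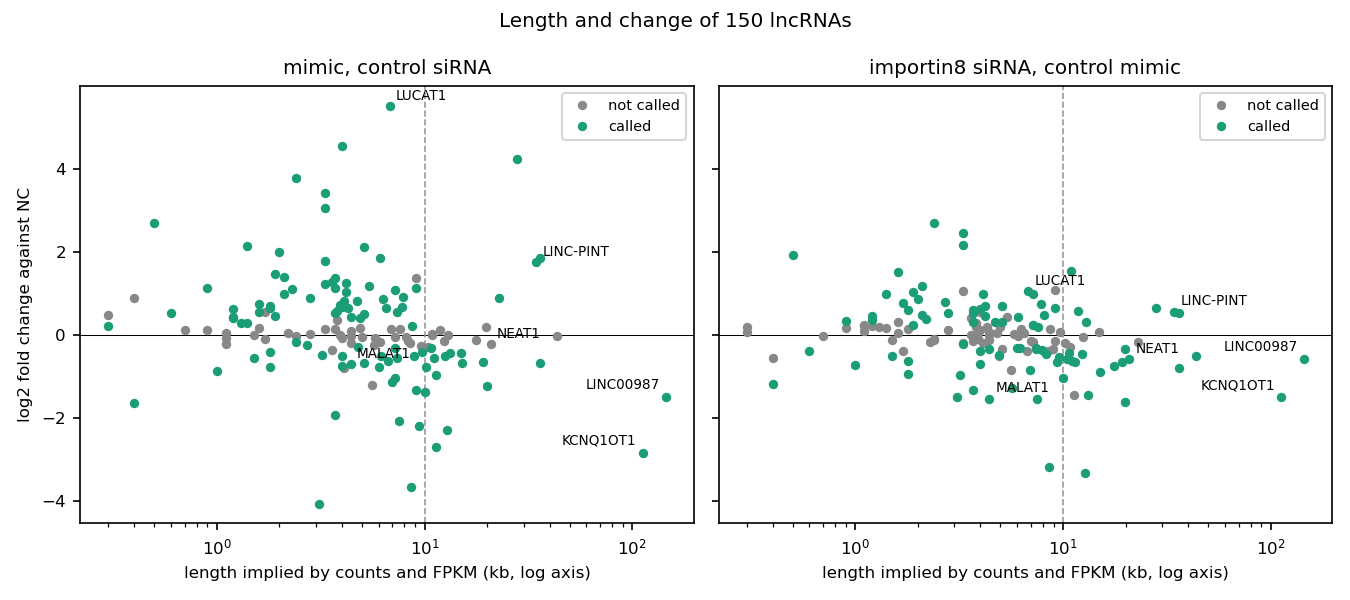
Log2 fold change against NC of the 150 lncRNAs by the length that counts and FPKM imply (kb, log axis, dashed line at 10 kb), for the mimic on the left and the importin8 siRNA on the right. Right of the line 15 of 29 fell and 4 rose with the mimic, and LINC-PINT, at 1.75, is among the 4.

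No lncRNA of the liver list was among the 150. Of 35 listed, 14 were in the table and 11 were tested, of which the mimic alone raised 4 and lowered 6. LINC00862 read 3.87 and 4.87 CPM in NC and 47.1 and 50.3 with the mimic (log2 3.48), and 6.91 and 5.94 with the siRNA against 21.7 and 22.1 with both (1.77). A1BG-AS1 went from 1.94 and 1.93 to 0.412 and 0.518 CPM (-2.04). LINC01348 was called only in the importin8 siRNA arm for the mimic (0.60), where it read 17.8 and 18.8 CPM without and 27.4 and 27.9 with the mimic.

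Returning to sequence, the lncRNAs with and without a seed match had medians near each other. Of the 25 with a match, 9 rose and 7 fell with control siRNA, a median log2 change of 0.04, and of the 61 without a match 22 rose and 19 fell, a median of -0.04. With importin8 siRNA the medians were 0.06 and 0.10. RefSeq promoters, from 250 bases before to 50 after the start, were found for 107 of the 150. They were searched on both strands for 3 sets of letters. The first, TGANTCA, is the core that AP-1 binds. The second, TGACNNNGC, is the core of the antioxidant response element and can overlap the first. The third, known as the E-box, reads CACGTG. The AP-1 letters were in 10 of the 107 (9.35%, against 7.76% of 27305 promoters). With the mimic and control siRNA LUCAT1, MIR4435-2HG, LINC-PINT, LINC01504, DENND5B-AS1 and LOC101929004 rose, SVIL-AS1, LINC00987 and LINC00963 fell, and LOC102723591 was not called. Over all 150, 58 were higher and 44 lower (68.0% called, against 75.9% of genes with as many counts). Directions were not tallied for the other sets of letters, and a link between letters and direction was not tested. The antioxidant core was in 21 (19.6% against 13.6%), among them LUCAT1, MALAT1 and NORAD. The E-box was in 11 (10.3% against 7.43%), among them OIP5-AS1, TUG1 and LINC-PINT. The promoters of LUCAT1 and MIR4435-2HG, with the largest rises among named intergenic lncRNAs, and of OIP5-AS1, with a large fall in both comparisons with NC, are shown from GRCh38.p14 in the direction of transcription, with matches in capitals.
LUCAT1, chr5:91314353-91314652, minus strand: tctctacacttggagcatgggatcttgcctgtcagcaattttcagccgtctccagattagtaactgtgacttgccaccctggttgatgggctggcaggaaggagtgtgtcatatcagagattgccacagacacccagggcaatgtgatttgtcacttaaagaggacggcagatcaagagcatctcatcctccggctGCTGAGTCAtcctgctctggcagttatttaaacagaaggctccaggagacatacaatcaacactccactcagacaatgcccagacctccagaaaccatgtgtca
MIR4435-2HG, chr2:111495112-111495411, minus strand: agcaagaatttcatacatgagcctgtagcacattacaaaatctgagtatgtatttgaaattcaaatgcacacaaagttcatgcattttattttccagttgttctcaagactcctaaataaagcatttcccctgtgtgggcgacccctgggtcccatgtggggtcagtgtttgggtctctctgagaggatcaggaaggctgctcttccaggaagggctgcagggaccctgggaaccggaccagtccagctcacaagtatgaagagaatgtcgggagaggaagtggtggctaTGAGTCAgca
OIP5-AS1, chr15:41283740-41284039, plus strand: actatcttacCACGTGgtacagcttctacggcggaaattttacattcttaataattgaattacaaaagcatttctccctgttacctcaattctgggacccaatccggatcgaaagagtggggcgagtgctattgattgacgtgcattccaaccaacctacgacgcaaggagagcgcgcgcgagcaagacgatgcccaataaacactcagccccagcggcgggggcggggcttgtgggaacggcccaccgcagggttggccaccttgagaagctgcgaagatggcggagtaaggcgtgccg
In LUCAT1 the capitals join an AP-1 match and an antioxidant core match on the opposite strand, which overlap. The AP-1 match of LUCAT1 begins at -52 relative to the start, that of MIR4435-2HG at base 41 after it, and the E-box of OIP5-AS1 begins at -240 on the same scale. For MIR4435-2HG the RefSeq window lies inside the gene as GENCODE places it, so its start is not the GENCODE start. These are letters in a window, with no measured binding.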

How the data were processed

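The 8 libraries, 2 for each of 4 groups, hold poly(A) RNA from HepG2. Groups come from the sample titles, and the abbreviated column names were read as those titles. Per the file headers, the deposited table gives an expected count per gene and library, together with an expression value that the authors' file does not name and whose sizes fit FPKM. Per the submitters' processing notes the tools were HISAT2 2.0.4, Bowtie2 2.2.5 and RSEM 1.2.8 with genome build GRCh38.p12 (roles unstated). Expected counts share reads among genes with common sequence, and no source used here states strand use.

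Expected counts were rounded and fitted for all genes with edgeR 4.0.16 (quasi-likelihood F test, robust, TMM, filterByExpr, 17715 genes kept, all 8 libraries with a mean per group). A gene was called at a Benjamini-Hochberg adjusted p under 0.05. SE is the absolute log2 change over the square root of F. FPKM was used only to compare levels between genes and to imply lengths. The fit was tested on simulated data. No 2 replicates agreed within sampling noise (chi-square over its degrees of freedom, 4.52 to 10.6).

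The lncRNAs and lists were chosen with earlier results of these data known. Named are IPO8, listed lncRNAs, the 8 largest called rises and falls per comparison with usual symbols and separate libraries (6 for the interaction), partners named in a symbol, and the 10 highest FPKM. SPARC was named after its values were seen. Lists were nuclear, snoRNA host, microRNA host, stress, liver, and growth and cancer lncRNAs. Gene positions are from GENCODE v29 (GRCh38) and promoters from RefSeq (GRCh38.p14). Alternatives were DESeq2 1.42.0, limma-voom (limma 3.58.1), other scalings, no filter, a replicate block, only the libraries compared, membership by FPKM, and each replicate left out. Some items are not reported here.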

Additional observations from a re-analysis of the deposited data

Results flagged for a closer look

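The mimic's effect differed between the control and the importin8 siRNA arm, by the interaction term of edgeR's quasi-likelihood fit, for the 12 lncRNAs given here, those with the largest differences among usual symbols. In log2, the effect with importin8 siRNA minus that with control siRNA was -2.98 for LUCAT1, -2.5 for MIR4435-2HG, -2.49 for TM4SF19-TCTEX1D2, -1.32 for CCDC13-AS1, -1.21 for LINC-PINT and -1.05 for SNHG17. It was 2.79 for CLMAT3, 2.71 for MKLN1-AS, 1.78 for KCNQ1OT1, 1.48 for OIP5-AS1, 1.30 for LINC00987 and 1.16 for MALAT1. For MALAT1 the effects had opposite signs, -0.71 and 0.45. The readthrough TM4SF19-TCTEX1D2, the SPARC antisense CLMAT3, KCNQ1OT1 and CCDC13-AS1 overlap coding genes, and their reads cannot be told apart from those of these genes. Others of the 12 may share this limit, since 76 of the 139 lncRNAs found in RefSeq overlapped a coding gene.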

How the results depend on the processing

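No called value of a named lncRNA turned its direction under the alternatives run. Of 189 called values of named lncRNAs, 146 were called with the same sign in every alternative and 43 were lost in at least 1. The number lower with the mimic under importin8 siRNA was 11, and became 19 with no scaling beyond library size and 18 when only those libraries were fitted. The number with a more positive mimic effect under importin8 siRNA was 30, and became 18 when the 150 were chosen by mean FPKM, which shares 99 lncRNAs with the choice by count. Leaving out single libraries gave 88 to 108 calls for the mimic with control siRNA (53 to 65 higher, 35 to 44 lower) and 47 to 64 with importin8 siRNA (36 to 50, 9 to 15). It gave 74 to 87 for the siRNA with control mimic (35 to 45, 38 to 46), 35 to 63 with the mimic (13 to 26, 22 to 37), and 48 to 73 for the interaction (21 to 29, 27 to 45). A lone library left in a group was assumed to vary like the others. Replicate numbers did not pair the libraries (correlations of -0.003 to 0.087), and the fit with a replicate block called 104, 62, 93, 59 and 69 lncRNAs in these 5 comparisons, against 102, 58, 88, 54 and 67 without it.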

Other observations

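The 2 libraries of a group differed by a median of 0.16, 0.12, 0.13 and 0.09 in absolute log2 CPM over the 150 lncRNAs, for no agent, the mimic, the siRNA and both, in that order. The 2 lncRNAs that follow were chosen after their values were seen. The readthrough ZFP91-CNTF was furthest apart in NC (64.8 and 26.0 CPM, a log2 gap of 1.32) and with both agents (12.6 and 29.2, a gap of 1.22), and it was not called in any comparison. PRKCA-AS1, antisense to a protein kinase C gene, stood at 16.2 and 38.4 CPM in NC and 76.8 and 65.5 with the mimic, and with a log2 change of 1.38 ± 0.44 its adjusted p was 0.051 by edgeR's quasi-likelihood test.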
